A study of Mus musculus with 3 samples.

Results

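Flavin-containing monooxygenases, encoded by the Fmo genes, were followed in fibroblasts cultured from mouse forestomach, the squamous part of the rodent stomach, as 3 lines that were each read on 1 array. The 4 genes Fmo1, Fmo2, Fmo4 and Fmo5 were chosen by gene family with their measured levels in these arrays already known, so their levels and differences are a description with no test. All 4 had a value, out of 19938 genes that carried exactly 1 symbol. The first line was labelled as a conditional knockout (cKO) of both Tgfbr2, the type II TGF-beta receptor gene, and Smad4, the gene of the common-mediator SMAD of TGF-beta and BMP signaling, and came from normal forestomach. The second was labelled as a Tgfbr2 cKO and came from a forestomach squamous cell carcinoma, and the third was a wild-type line from normal forestomach. All 3 lines were FSP1-positive cells from mice of mixed C57BL6 and BALBc background, cultured in medium with 10% fetal bovine serum and used at passage 4 to 6. The labels give neither the Cre driver nor the ages or number of the mice, and do not say which sex gave which line. Genotype and the identity of the single line cannot be told apart in any comparison, and in those with the Tgfbr2 cKO line the tissue of origin differs as well. With 1 array each there is no replicate spread against which to read a difference.

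Flavin-containing monooxygenases sit in the membrane of the endoplasmic reticulum and use FAD, NADPH and molecular oxygen to oxygenate nucleophilic nitrogen and sulfur atoms of drugs, pesticides, dietary amines and small thiols. They are best known from liver, kidney and lung, where they work beside the cytochrome P450 enzymes. Fmo1 is prominent in mouse kidney and liver and can oxidise hypotaurine to taurine, Fmo2 is the main lung form, Fmo4 is a little-studied member, and Fmo5 is a liver and gut form that differs from the others in catalysing Baeyer-Villiger oxidation of ketones.

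Fmo1 and Fmo2 were higher in the Tgfbr2/Smad4 cKO array than in both other arrays, Fmo1 by 4.44-fold and Fmo2 by 4.94-fold against wild type, while Fmo4 and Fmo5 differed by at most 1.13-fold in any comparison. The values are deposited log2 signals, so a difference of 1 is a 2-fold difference. Fmo1, read by probe set 10359571, had a log2 level of 8.26 in Tgfbr2/Smad4 cKO, 6.11 in Tgfbr2 cKO and 6.11 in wild type. The first of these stood alone, and the other two were equal to every deposited digit. The median of all values in the table was 6.63, so Fmo1 lay below it in Tgfbr2 cKO and wild type and above it in Tgfbr2/Smad4 cKO.

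Fmo2, read by probe set 10359582, had a log2 level of 9.39 in Tgfbr2/Smad4 cKO, 7.04 in Tgfbr2 cKO and 7.09 in wild type. It lay above the median signal in all 3 arrays, with Tgfbr2/Smad4 cKO far above the other two and Tgfbr2 cKO and wild type apart by -0.05 on the log2 scale. Fmo5, read by probe set 10494565, had a log2 level of 6.97 in Tgfbr2/Smad4 cKO, 6.94 in Tgfbr2 cKO and 6.94 in wild type. Its 3 arrays were nearly level and just above the median signal. Fmo4, read by probe set 10359561, had a log2 level of 5.72 in Tgfbr2/Smad4 cKO, 5.54 in Tgfbr2 cKO and 5.54 in wild type. It was below the median signal in every array, and no difference of its own reached 2-fold.

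**Figure D1:**
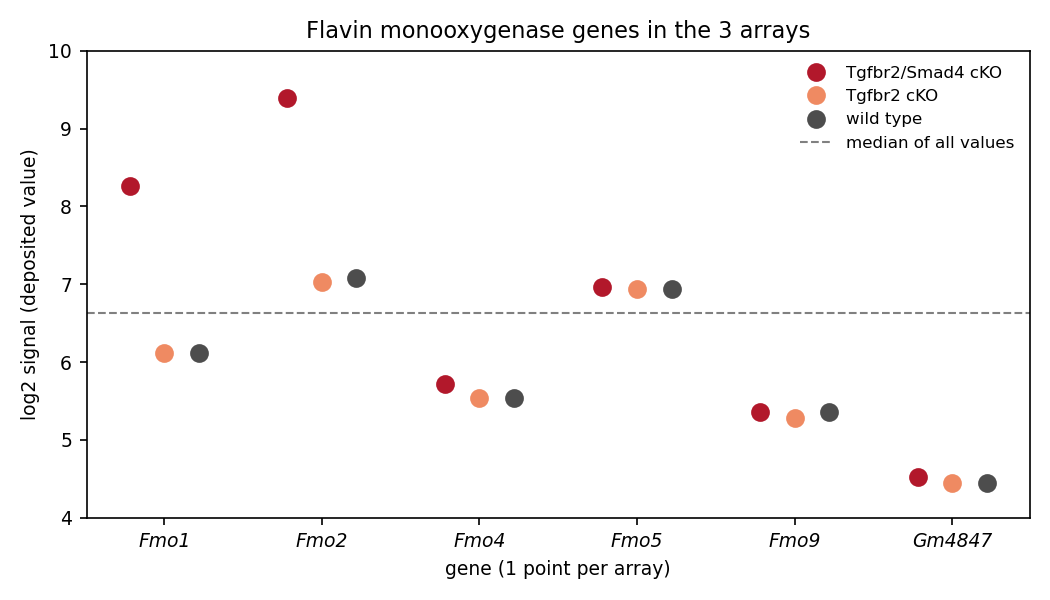
Deposited log2 signal (y axis) of the 4 members and the other measured family genes, Fmo9 and Gm4847 (x axis), with 1 point per array and the median of all values as a dashed line. Fmo1 and Fmo2 in Tgfbr2/Smad4 cKO, at 8.26 and 9.39, stand apart from Tgfbr2 cKO and wild type, while the points of each other gene lie close together.

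Among other members of the family, Fmo9 had log2 levels of 5.36 in Tgfbr2/Smad4 cKO, 5.28 in Tgfbr2 cKO and 5.36 in wild type. Gm4847, which RefSeq lists with the synonym Fmo12, was at 4.53 in Tgfbr2/Smad4 cKO, 4.45 in Tgfbr2 cKO and 4.45 in wild type. Both were below the median signal in every array and nearly level across them.

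Set against wild type, the Tgfbr2/Smad4 cKO array had a log2 difference of 2.15 for Fmo1, 2.31 for Fmo2, 0.18 for Fmo4 and 0.04 for Fmo5. To place these among all genes, differences were counted over the 11808 genes whose highest value over the arrays reached the median signal. Of the 4 members, 3 met that level, Fmo5 and Fmo2 in all 3 arrays but Fmo1 in only 1, so Fmo1 was counted only through the array where it was high. In this comparison 144 of 11808 genes, 1.22%, were higher by 2-fold or more and 257, 2.18%, were lower by as much, and Fmo1 and Fmo2 were among the higher ones. Counted from the highest difference down, Fmo2 was at place 14 and Fmo1 at place 21 of 11808, while Fmo5 was at place 3064. These places describe values that were known when the genes were chosen and support nothing by themselves.

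The Tgfbr2 cKO array differed from wild type by 0 for Fmo1, -0.05 for Fmo2, 0 for Fmo4 and 0 for Fmo5. No member was 2-fold apart in this comparison, in which 0.0254% of genes were higher by 2-fold or more and 0.00847% were lower by as much. Exact equality was common in this table, since 55.1% of counted genes had the same value in Tgfbr2 cKO and wild type, 36.7% in Tgfbr2/Smad4 cKO and wild type, and 32.7% in all 3 arrays. The step that made values equal is not stated in the sources used here, so a difference of 0 does not show that a gene was unchanged.

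Set against Tgfbr2 cKO, the Tgfbr2/Smad4 cKO array had differences of 2.15 for Fmo1 and 2.36 for Fmo2, which are 4.44-fold and 5.12-fold. Fmo4 and Fmo5 had differences of 0.18 and 0.04. In this comparison 1.32% of genes were higher by 2-fold or more and 2.25% were lower by as much. Both comparisons of Tgfbr2/Smad4 cKO share that 1 array, so their values are not separate evidence.

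**Figure D2:**
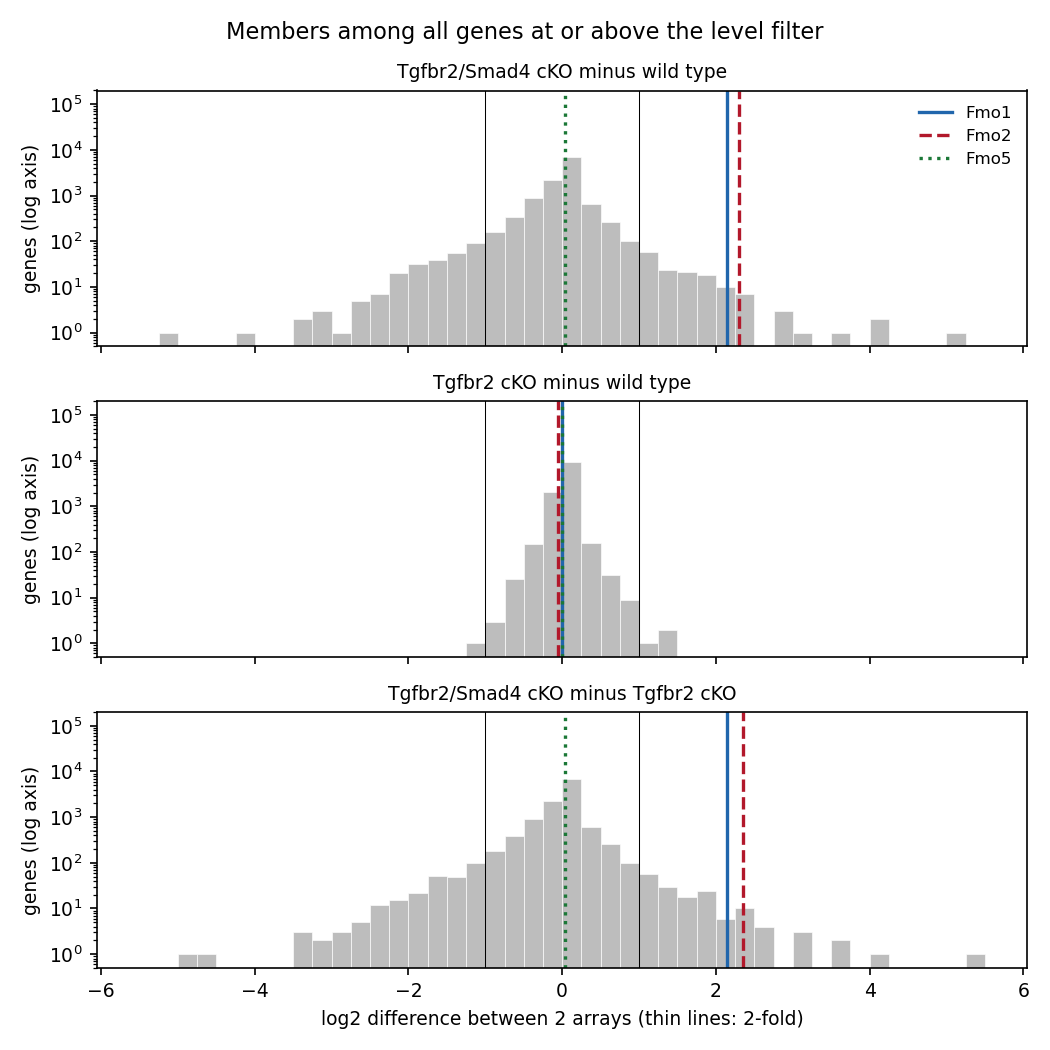
Histograms of log2 differences over 11808 genes (x axis, log2 difference between 2 arrays; y axis, number of genes on a log axis) for the 3 comparisons, with coloured lines at Fmo1, Fmo2 and Fmo5 and thin black lines at 2-fold. Fmo1 and Fmo2 lie in the right tail, between 2.15 and 2.36, in both comparisons of Tgfbr2/Smad4 cKO and at or near 0 between Tgfbr2 cKO and wild type.

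Fmo1 and Fmo2 are neighbouring protein-coding genes on mouse chromosome 1, with the long noncoding RNA gene Gm32197 between them, in a run of Fmo genes in which RefSeq places Fmo4, Fmo1 and Fmo2 in that order, while Fmo5 lies on chromosome 3. Within that run the higher signal covered Fmo1 and Fmo2 and not Fmo4, which lies next to Fmo1, while Gm32197 was not analysed here. The nearest measured genes outside the run on the Fmo4 side had Tgfbr2/Smad4 cKO minus wild type log2 differences of 0.08 for Prrc2c, 0 for Myocos and 0.01 for Vamp4. On the Fmo2 side, Mroh9 differed by 0 and Mettl11b by -0.0047. Prrx1, a homeobox gene expressed in mesenchyme, had log2 levels of 11.17 in Tgfbr2/Smad4 cKO, 10.91 in Tgfbr2 cKO and 10.91 in wild type, a difference of 0.25. None of these 6 flanking genes was 2-fold apart. This is near the share over all counted genes, of which 1.22% were higher and 2.18% lower by as much. Myocos, Mroh9 and Mettl11b were also below the median signal in every array. Around Fmo5 on chromosome 3, the differences ran from -0.23 for Pde4dip to 0.08 for Bcl9 over 6 measured flanking genes.

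**Figure D3:**
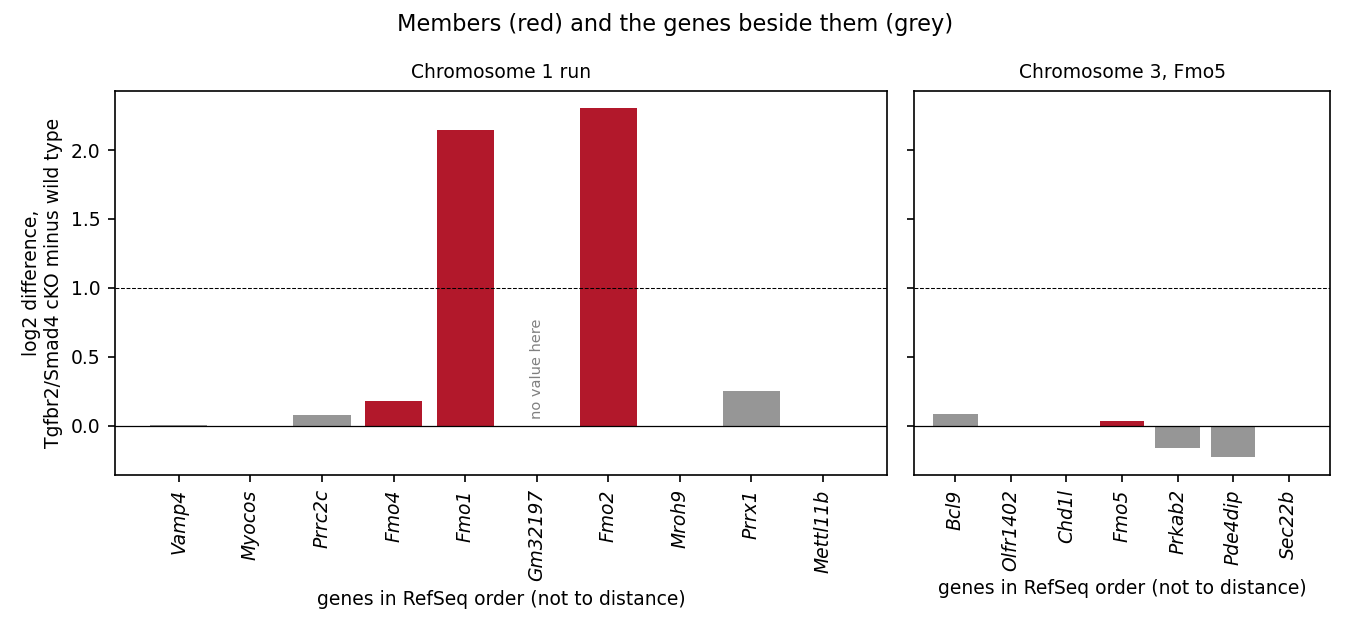
Log2 difference of Tgfbr2/Smad4 cKO minus wild type (y axis) for the members, in red, and the genes beside them, in grey, in RefSeq order along chromosome 1 (left) and chromosome 3 (right), not drawn to distance and with flanking genes that have no value left out. Fmo1 and Fmo2 stand above the dashed 2-fold line and every measured neighbour lies between -0.23 and 0.25. Fmo4, Myocos, Mroh9, Mettl11b and Olfr1402 were below the median signal in every array.

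The promoter windows of Fmo2, whose signal differed, and of its cluster neighbour Fmo4, whose signal differed by 0.18, are shown so that the letters around their start sites can be compared. They come from RefSeq on build GRCm38.p6, run from 250 bases before to 50 bases after an annotated start, and are read along the gene's minus strand. Of the 4 members, 3 matched an entry. Fmo1, whose signal also differed, did not, so it has no window here. Capitals mark GTCT or its reverse complement AGAC, the core letters bound by SMAD proteins. Fmo2 has windows at chr1:162898709-162899008 and chr1:162898444-162898743, and Fmo4 at chr1:162812500-162812799.
Fmo2 upstream start: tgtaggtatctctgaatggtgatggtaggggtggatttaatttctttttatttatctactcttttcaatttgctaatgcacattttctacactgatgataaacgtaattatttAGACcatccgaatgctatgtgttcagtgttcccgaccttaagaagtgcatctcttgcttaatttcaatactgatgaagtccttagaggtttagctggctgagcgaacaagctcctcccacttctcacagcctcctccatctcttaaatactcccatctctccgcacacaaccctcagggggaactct
Fmo2 downstream start: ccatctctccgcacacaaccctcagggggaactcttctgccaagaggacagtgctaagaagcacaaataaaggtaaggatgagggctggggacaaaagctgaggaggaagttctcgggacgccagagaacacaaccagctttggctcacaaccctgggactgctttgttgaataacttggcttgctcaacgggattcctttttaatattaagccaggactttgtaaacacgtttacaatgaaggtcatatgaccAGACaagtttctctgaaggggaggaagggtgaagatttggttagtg
Fmo4: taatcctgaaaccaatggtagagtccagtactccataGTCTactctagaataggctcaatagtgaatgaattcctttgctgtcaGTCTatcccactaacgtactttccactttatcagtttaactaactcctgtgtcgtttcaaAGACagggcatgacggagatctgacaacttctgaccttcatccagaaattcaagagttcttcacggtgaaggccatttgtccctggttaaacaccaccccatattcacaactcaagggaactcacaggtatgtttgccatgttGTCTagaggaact

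The SMAD core occurred 1 time in each Fmo2 window, 4 times in the Fmo4 window and 3 times in the Fmo5 window, counting both strands. It is so short that 88.0% of 32851 RefSeq windows held it, with a median of 2 matches. The longer CAGACA, of which the core is a part, was in the downstream Fmo2 window and in the Fmo5 window and in 21.0% of all windows. The letters GGCGCC, a GC-rich SMAD site, and GCGTG, the core bound by the aryl hydrocarbon receptor, were in none of the 4 windows, against 11.9% and 32.4% of all windows. TATAAA was in the Fmo5 window and in 13.6% of all windows. These matches are letters in a window and were not compared with any binding data. The windows of Fmo2 had a GC content of 41.3% and 47.7%, that of Fmo4 42.7% and that of Fmo5 56.0%, against a median of 52.7% over all windows.

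The genes whose pattern over the 3 arrays was nearest to that of Fmo1 were Slc40a1, Pltp, Lbp, Steap3 and Gem. Likeness was the Euclidean distance between log2 levels after each gene's own mean was subtracted, and these 5 lay at 0.06 to 0.15. Slc40a1, which encodes the iron exporter ferroportin, was nearest, with log2 levels of 9.21 in Tgfbr2/Smad4 cKO and 7.08 in Tgfbr2 cKO, and a difference of 2.21 from wild type. The genes nearest to Fmo2 were Pltp, the phospholipid transfer protein gene, then Gas1, Adamtsl3, Fbln7 and Steap3, at distances of 0.04 to 0.10. Adamtsl3 was counted only through Tgfbr2/Smad4 cKO, since it was at 5.72 in Tgfbr2 cKO and 5.90 in wild type. Pltp had levels of 11.82 in Tgfbr2/Smad4 cKO, 9.49 in Tgfbr2 cKO and 9.57 in wild type. Fmo2 itself was at place 6 for Fmo1, and Fmo1 was at place 7 for Fmo2, with a distance of 0.15 between them. With 3 arrays, likeness rests almost wholly on the size of 1 difference.

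**Figure D4:**
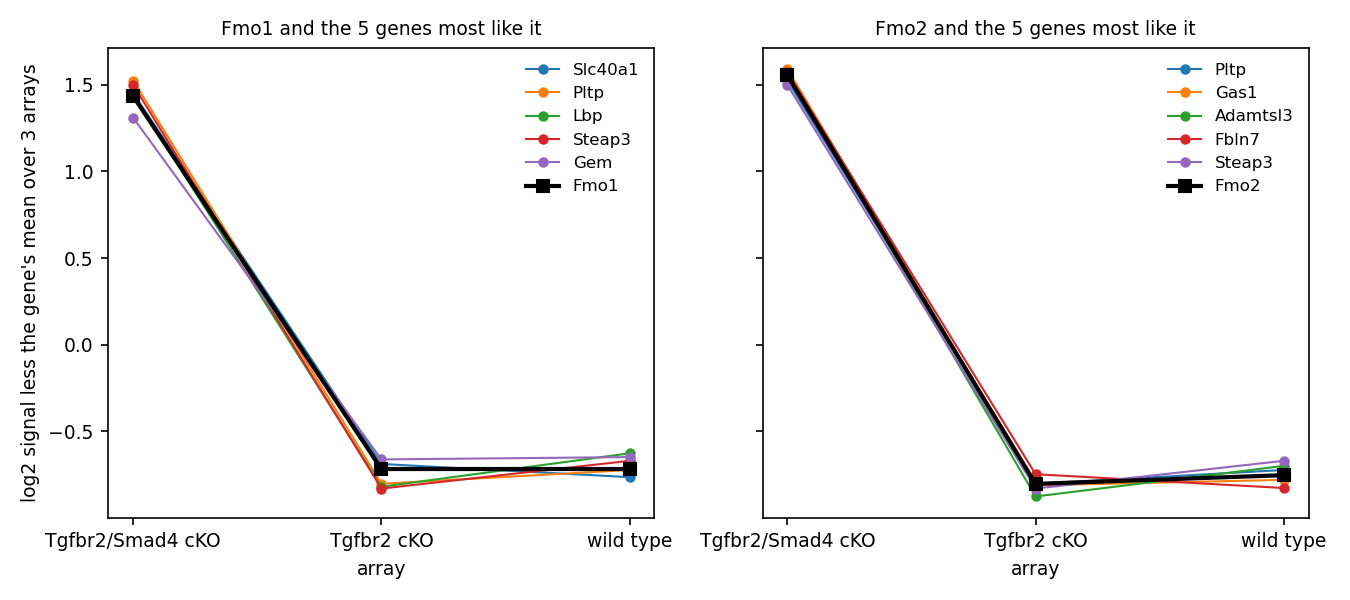
Log2 signal less each gene's mean over the 3 arrays (y axis) by array (x axis) for Fmo1 (left) and Fmo2 (right), in black, with the 5 genes of nearest pattern in colour and lines that only join a gene's points. Every line is high in Tgfbr2/Smad4 cKO and low in Tgfbr2 cKO and wild type, as the choice by likeness requires.

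Other genes of xenobiotic oxidation did not share a uniform difference between Tgfbr2/Smad4 cKO and wild type. Of 15 counted P450 genes and their partners, 7 were above 0, 3 below and 5 equal, with a median of 0, the same median as over all genes, where 31.1% were above and 32.2% below. The single 2-fold member was Cyp7b1, an oxysterol hydroxylase gene, with log2 levels of 8.01 in Tgfbr2/Smad4 cKO, 7.32 in Tgfbr2 cKO and 6.51 in wild type. Cyp1b1, the abundant P450 gene of many fibroblasts, had levels of 12.90, 12.77 and 12.76 in that order. Of 22 other phase I enzyme genes, 10 were above 0 and 7 below, with none 2-fold apart from wild type. Of all counted genes, 1.22% were 2-fold higher and 2.18% lower in that comparison, so these 2-fold counts are small numbers near the background. Against Tgfbr2 cKO, the aldehyde oxidase gene Aox1 and the retinaldehyde dehydrogenase gene Aldh1a1 were higher in Tgfbr2/Smad4 cKO by 1.23 and 1.14, and Ephx2, the soluble epoxide hydrolase gene, had a difference of -1.03.

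Of 19 conjugation enzyme genes, 8 were above 0 and 7 below in Tgfbr2/Smad4 cKO against wild type. The 2 at least 2-fold lower were Nnmt, the nicotinamide methyltransferase gene, at -1.65 and Gsto1, a glutathione transferase gene, at -1.11. Of all counted genes, 2.18% were lower by as much. Against Tgfbr2 cKO, Gsta4 was higher by 1.77, and Gstk1, Gsto1 and Nnmt had differences of -1.41, -1.09 and -2.27. In that comparison 1.32% of all counted genes were 2-fold higher and 2.25% lower. Of 17 genes of xenobiotic sensors, nuclear receptors and related regulators, 13 were above 0, 1 was below and 3 were equal against wild type. Their median in Tgfbr2/Smad4 cKO was 0.12. Over all counted genes, 31.1% were above 0 and 32.2% below. Ahr, which encodes the aryl hydrocarbon receptor, was the single 2-fold member, with log2 levels of 10.58 in Tgfbr2/Smad4 cKO, 9.36 in Tgfbr2 cKO and 9.39 in wild type. The difference of Ahr was 1.20 against wild type, where 1.22% of all counted genes were higher by 2-fold or more. The estrogen receptor gene Esr1, Pparg and Foxo1 were higher by 0.71, 0.61 and 0.56, short of 2-fold. Esr1 was counted only through Tgfbr2/Smad4 cKO, since it was at 6.54 in both other arrays.

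Genes that supply the cofactors of flavin monooxygenases were not 2-fold apart in any comparison. That is near the background, since at most 1.32% of all counted genes were 2-fold higher and 2.25% lower in any comparison. Of 16 NADPH supply genes, 4 were above 0 and 10 below in Tgfbr2/Smad4 cKO against wild type, with a median of -0.07. Of all counted genes, 31.1% were above 0 and 32.2% below. The largest differences in the list were 0.99 for the malic enzyme gene Me3 and -0.95 for the folate enzyme gene Aldh1l1. Of 3 counted flavin supply genes, Slc25a32, a mitochondrial folate and flavin carrier gene, had a difference of 0.04, Acp1 one of -0.09 and the riboflavin kinase gene Rfk one of 0. Of 24 genes that make or consume small thiols and amines, the kind of molecule flavin monooxygenases oxidise, 9 were above 0, 9 below and 6 equal. The amine oxidase gene Aoc3 was higher by 1.66, and Vnn1, the pantetheinase gene whose product releases cysteamine, had a difference of -1.55. Between Tgfbr2 cKO and wild type no gene of these lists was 2-fold apart, and the largest difference was -0.998 for Gsta4. Over all counted genes, 0.0254% were 2-fold higher and 0.00847% lower there.

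**Figure D5:**
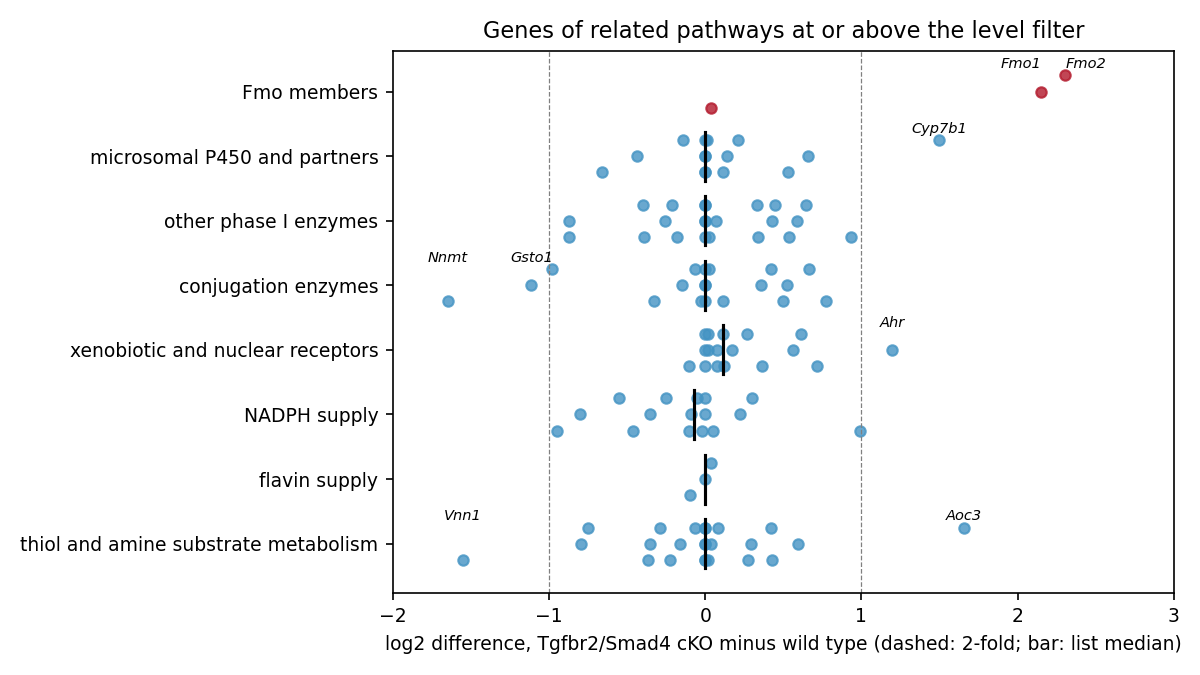
Log2 difference of Tgfbr2/Smad4 cKO minus wild type (x axis) for each gene that reached the median signal in any array, by list (y axis: the Fmo members, P450 genes and partners, other phase I enzymes, conjugation enzymes, xenobiotic and nuclear receptors with related regulators, NADPH supply, flavin supply, and thiol and amine metabolism), with the list median as a black bar for the lists other than the members and dashed lines at 2-fold. Of the genes in these lists Fmo1 and Fmo2 lie furthest to the right, and the genes named in the plot are those at least 2-fold apart.

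Several other measures moved with the Tgfbr2/Smad4 cKO array, and their part in the Fmo values was not tested. Xist had log2 levels of 9.44 in Tgfbr2/Smad4 cKO, 5.35 in Tgfbr2 cKO and 5.33 in wild type, while Eif2s3y, on the Y chromosome, was at 5.01 in Tgfbr2/Smad4 cKO, 10.00 in Tgfbr2 cKO and 10.12 in wild type. Uty and Kdm5d differed by -2.65 and -2.13 against wild type, so that line had the sex-linked pattern of a female and the other two that of a male. As background, the liver level of Fmo1 is known to differ between male and female mice. Sex pattern and genotype cannot be told apart here. Of 19 proliferation genes, all 19 were lower in Tgfbr2/Smad4 cKO than in wild type, and the list median was -1.49. By 2-fold or more, 14 of them were lower, against 2.18% of all counted genes. These 14 were Bub1, Kif11, Ccna2, Mcm6, Mki67, Plk1, Rrm2, Tpx2, Ccnb2, Birc5, Cdc20, Cdk1, Mcm5 and Top2a, with differences from -2.64 for Bub1 to -1.01 for Top2a. Bub1, Kif11 and Top2a were below the median signal in Tgfbr2/Smad4 cKO, at 6.54, 6.46 and 5.81, and were counted only through the other arrays. Of 14 TGF-beta and BMP response genes, 10 were below 0 and 1 above, and Ccn2, Cnn1 and Id2 had differences of -2.17, -1.62 and -1.12. Between Tgfbr2 cKO and wild type, 4 of these genes were below 0 and 6 above, with a median of 0 and none 2-fold apart. Ccn2, Cnn1 and Id2 differed there by 0.18, 0.12 and -0.01. Tgfbr2 differed by 0.04 and Smad4 by -0.02 in Tgfbr2/Smad4 cKO against wild type, and by 0 and 0 between Tgfbr2 cKO and wild type. The values cover whole transcripts, so a deleted exon cannot be seen in them and they check neither label.

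Most markers of the labelled fibroblast type reached the median signal, as did most smooth muscle and pericyte markers. Of 15 measured fibroblast markers, 14 reached the median signal in Tgfbr2/Smad4 cKO, 13 in Tgfbr2 cKO and 12 in wild type. The list's median level was 11.74 in each array, which was the value of Loxl1, equal in all 3. Of 14 counted ones, 10 were above 0 and 3 below in Tgfbr2/Smad4 cKO against wild type. S100a4, which encodes FSP1, had levels of 12.71 in Tgfbr2/Smad4 cKO, 13.16 in Tgfbr2 cKO and 13.18 in wild type. Against wild type, Dpt, Pdgfra, Lum and Fap were higher in Tgfbr2/Smad4 cKO by 4.24, 1.40, 1.21 and 1.09, and Thy1 had a difference of -2.36. Dpt, at 9.45 in Tgfbr2/Smad4 cKO, 5.85 in Tgfbr2 cKO and 5.21 in wild type, was counted only through the array where it was high, and Fap was below the median signal in wild type, at 6.39. Since each culture is a bulk sample, fewer cells of a type and less RNA per cell cannot be told apart.

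Most markers of the cell types best known for Fmo genes were below the median signal of 6.63. Of 9 measured hepatocyte markers, 2 reached the median signal in any array, Apoa2 and Hnf4a, at levels of 7.46 and 6.74 in Tgfbr2/Smad4 cKO and both with differences of 0 from wild type. Of 8 lung club and alveolar markers 1 did, Sftpa1 with a difference of 0.12, and of 8 kidney tubule markers 1 did, Lrp2, at 7.29 in Tgfbr2/Smad4 cKO and 7.92 in wild type, a difference of -0.63. The median levels of these lists were 5.72, 6.00 and 5.93 in Tgfbr2/Smad4 cKO and 5.72, 5.98 and 5.93 in wild type. Adipocyte markers had a median level of 6.69 in each array, which was the equal value of Plin1. Of the 4 counted ones, Pparg had a difference of 0.61 between Tgfbr2/Smad4 cKO and wild type, Fabp4 one of -0.12, and Plin1 and Lipe were equal.

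Markers of other cells of the stomach wall differed more. Smooth muscle and pericyte markers had a median level of 9.21 in Tgfbr2/Smad4 cKO, 12.36 in Tgfbr2 cKO and 12.33 in wild type. In Tgfbr2 cKO and wild type this was above the fibroblast list's median of 11.74. Of 8 counted ones, 5 were at least 2-fold lower in Tgfbr2/Smad4 cKO than in wild type, against 2.18% of all counted genes. These were Kcnmb1, Myh11, Actg2, Des and Cnn1, at -4.21, -3.37, -2.85, -2.06 and -1.62, and Notch3 was higher by 1.18. Kcnmb1 was below the median signal in Tgfbr2/Smad4 cKO, at 6.04. Acta2 and Tagln, at 14.46 and 13.73 in Tgfbr2/Smad4 cKO, differed by -0.20 and -0.36. Of 5 counted mesothelial markers, 3 were at least 2-fold lower, Upk1b at -3.48, Krt19 at -1.89 and Upk3b at -1.14. Upk1b was below the median signal in Tgfbr2/Smad4 cKO, at 6.21. In Tgfbr2 cKO, Upk3b was also 2-fold lower than in wild type, at -1.07, whereas Upk1b had a difference of -0.83 and Krt19 one of 0.42. Krt19 was also the single 2-fold member of 3 counted epithelial markers. Of 8 endothelial markers 2 reached the median signal, Vwf with a difference of 0 and the TGF-beta co-receptor gene Eng at 2.20. Of 3 counted leukocyte markers Lyz2 had a difference of -0.96, Cd68 one of -0.25 and Csf1r one of 0. Lyz2 was highest in Tgfbr2 cKO, at 9.52 against 7.75 in Tgfbr2/Smad4 cKO and 8.70 in wild type. Against Tgfbr2 cKO, the differences of Lyz2, Cd68 and Csf1r in Tgfbr2/Smad4 cKO were -1.77, -0.75 and 0. The part of these markers in the Fmo values was not tested.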

How the data were processed

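Per the labels, RNA of 3 fibroblast lines was read on Affymetrix Mouse Gene 1.0 ST arrays, 1 per line. The deposited table holds 35556 probe sets with values read as log2 signal from their range of 2.82 to 15.6. Which software and normalization the authors used, and on which build, is not stated in the labels or the file. Column medians were 6.63 in each array, so the deposited log2 values were used as they are.

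Symbols came from the platform annotation, in which 21789 probe sets had 1 symbol, 1621 had several and 12146 were not listed. They were updated by gene ID with RefSeq names (GRCm38.p6) for 21698, and probe sets of a gene were averaged, giving 19938 genes. Groups came from the sample titles. Differences are log2 values of 1 array minus another, with a 2-fold size rule among the 11808 genes whose highest value reached the median signal, 6.63. No test was possible.

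Members and gene lists were chosen with earlier results of these data known. Named genes were the Fmo genes, the list members at least 2-fold apart in a comparison or, failing that, those with the largest difference, Tgfbr2, Smad4, S100a4 and the sex-linked genes, 3 measured genes on each side, and the 5 genes of nearest pattern. Cyp1b1, Esr1, Foxo1, Rfk, Cd68, Csf1r, Vwf, Plin1, Lipe, Acta2, Tagln and Loxl1 were added after their values were seen. Alternatives covered normalization, probe set choice, an offset, the size rule and the level filter. The counting step was tested on simulated data. Tools were Python 3.11.15, numpy 2.4.6, pandas 2.3.3, matplotlib 3.10.9, R 4.3.3 and limma 3.58.1. A further gene of the family is not reported here.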

Additional observations from a re-analysis of the deposited data

How the results depend on the processing

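Fmo1 and Fmo2 kept their direction and stayed at least 2-fold higher in Tgfbr2/Smad4 cKO than in wild type under other processing. This covered median centring, quantile and cyclic loess normalization, and an offset of 32 on the linear scale. Taking the probe set with the highest mean could not change the values of a member, since each has 1 probe set. The log2 differences ran from 1.74 to 2.17 for Fmo1 and from 2.07 to 2.34 for Fmo2. The offset gave the lowest of each, 1.74 for Fmo1 and 2.07 for Fmo2 against wild type, and 1.74 and 2.11 against Tgfbr2 cKO, since it shrinks differences of dim genes. Size rules of 1.5-fold and 3-fold were set against the same differences, 4.44-fold and 4.94-fold against wild type, so passing them was certain beforehand. With the level filter at the 75th percentile Fmo1 and Fmo5 were no longer counted. Fmo2, the 1 member left, was 2-fold apart in each comparison of Tgfbr2/Smad4 cKO. At that filter Fmo2 was counted only through Tgfbr2/Smad4 cKO, the array where it was high, so the count adds no support. Without a filter Fmo4 was counted and was not 2-fold apart. No member was 2-fold apart between Tgfbr2 cKO and wild type under any of these.

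Over all genes, the number at least 2-fold apart for Tgfbr2/Smad4 cKO against wild type, Tgfbr2 cKO against wild type, and Tgfbr2/Smad4 cKO against Tgfbr2 cKO was 401, 4 and 422. It was 997, 44 and 1064 at 1.5-fold, 151, 0 and 161 at 3-fold, and 251, 2 and 269 with the filter at the 75th percentile. That filter counted 6080 genes, against 11808 in the main setting, so the numbers have different bases. With the offset, 2 genes were 2-fold apart between Tgfbr2 cKO and wild type, and with quantile and cyclic loess normalization 4 higher and 2 lower, and 3 higher and 2 lower. No paired analysis was possible because each group has 1 array. Signal over background is unknown, which limits dim genes such as Fmo4 and, outside Tgfbr2/Smad4 cKO, Fmo1.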
